A study of Mus musculus with 12 samples.

Results

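The Fos and Jun genes encode the subunits of AP-1, a dimeric transcription factor. The genes studied were Fos, Fosb, Fosl1 and Fosl2 of the Fos branch and Jun, Junb and Jund of the Jun branch. They were found by their symbols in the platform annotation: 9 of the 22690 probe sets of the array carried exactly 1 of these 7 symbols, with 2 probe sets each for Jun and Fosl1 and 1 for each other gene. A total of 0 probe sets were shared between one of these genes and another gene.

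Transcript levels had been measured in the striatum, the nucleus accumbens included, of female littermate mice aged 10 to 15 weeks, on 12 Affymetrix expression arrays with 1 sample each. The sample titles give 4 groups of 3 arrays, called biological replicates there: mutants injected with cocaine, mutants injected with saline, controls injected with cocaine and controls injected with saline. Cocaine was given intraperitoneally at 25 mg/kg, and the striatum was taken 1 hour after injection in all 4 groups. The animals of all 4 groups had 5 days of handling. The study asks about SRF, the serum response factor, by its title, but the labels give neither the altered allele of Srf, nor the cells in which it was changed, nor what the control animals carry.

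The description field of the samples names other groups than the titles, with 3 arrays as saline-treated controls, 5 as cocaine-treated controls and 4 as cocaine-treated mutants, and the treatment field gives cocaine for every sample. The titles were used. Under them the tested Srf probe set read 5.01 to 5.49 in the 6 mutant arrays, against 6.97 to 7.21 in the 6 control arrays (log2 signal), so the arrays titled mutant had the lower Srf signal without overlap. The authors' processing left the array medians at 3.75 to 3.78, and arrays correlated at 0.986 to 0.993 within groups. All 8 striatal projection neuron markers on the array exceeded the filter floor used below, among them Penk with a mean of 11.8 and Ppp1r1b with 10.8, and the 3 cortical markers on the array (Tbr1, Neurod6 and Neurod2) lay under it in every array. In such tissue, fewer cells of a type and less RNA per cell cannot be told apart.

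Fos proteins do not pair with each other and classically pair with Jun proteins, which also pair among themselves; both can pair with other basic leucine zipper factors. The dimers bind AP-1 sites through their basic leucine zippers. Fos, Fosb, Jun and Junb are immediate early genes, transcribed within minutes of neuronal activation without new protein synthesis. In striatal neurons cocaine induces them through dopamine and glutamate receptor signalling, and the promoters of Fos and of several other members are classical targets of SRF with its ternary complex factors and of CREB. A truncated splice form of FosB is known for its accumulation in the striatum under repeated cocaine; the array value for Fosb was not divided by splice form.

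The promoters of the 4 genes that rose with cocaine are shown because each was called for cocaine averaged over the genotypes, and because SRF and CREB act on this class of gene. They are RefSeq sequences of assembly GRCm38.p6, each reaching from 250 bases before to 50 bases after an annotated transcription start; 6 of the 7 genes had an entry, Fosl1 being the one without. Capitals mark the core of the CREB site, TGACG, in Fos, Fosb and Junb, and in Jun they mark the 8-base form TGANNTCA and the MEF2 box, each searched on both strands.
Fos, chr12:85473640-85473939, plus strand: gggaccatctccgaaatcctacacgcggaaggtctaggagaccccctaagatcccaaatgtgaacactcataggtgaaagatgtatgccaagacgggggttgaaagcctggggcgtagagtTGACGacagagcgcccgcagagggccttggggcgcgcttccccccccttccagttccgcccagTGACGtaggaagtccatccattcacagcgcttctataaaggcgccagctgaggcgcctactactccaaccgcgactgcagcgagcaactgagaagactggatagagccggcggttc
Fosb, chr7:19309996-19310295, minus strand: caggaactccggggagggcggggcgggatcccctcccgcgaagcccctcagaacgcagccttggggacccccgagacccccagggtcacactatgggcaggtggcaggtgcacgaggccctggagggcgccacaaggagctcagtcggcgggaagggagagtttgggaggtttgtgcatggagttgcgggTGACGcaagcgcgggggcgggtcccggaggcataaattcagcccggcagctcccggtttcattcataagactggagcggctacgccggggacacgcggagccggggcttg
Junb, chr8:84978699-84978998, minus strand: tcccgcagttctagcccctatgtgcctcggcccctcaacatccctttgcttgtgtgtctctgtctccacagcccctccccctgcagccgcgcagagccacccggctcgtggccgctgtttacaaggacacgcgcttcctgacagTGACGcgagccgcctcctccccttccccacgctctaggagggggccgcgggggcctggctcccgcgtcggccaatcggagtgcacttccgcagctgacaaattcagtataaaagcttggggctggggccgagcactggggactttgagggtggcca
Jun, chr4:95052173-95052472, minus strand: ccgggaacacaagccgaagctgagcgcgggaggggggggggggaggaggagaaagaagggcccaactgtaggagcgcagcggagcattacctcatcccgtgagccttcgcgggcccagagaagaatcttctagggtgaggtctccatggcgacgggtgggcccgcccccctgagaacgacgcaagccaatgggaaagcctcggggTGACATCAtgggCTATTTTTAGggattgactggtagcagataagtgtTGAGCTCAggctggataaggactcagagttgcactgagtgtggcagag

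In Fos the core TGACG stood at bases -129 to -125 and -66 to -62 from the annotated start, in Fosb at -60 to -56 and in Junb at -106 to -102. Of 32841 promoter windows of this length in the RefSeq table, 20.8% held TGACG on either strand. The Jun window held TGANNTCA at -45 to -38 and at 3 to 10, a form present in 14.1% of windows, and a MEF2 box at -33 to -24, present in 0.557%. By these positions the marked forms of Jun do not overlap. The windows of Jun, Fosl2 and Jund held no TGACG. That of Jund held TGANNTCA at -61 to -54. The 7-base AP-1 site TGANTCA and the CArG box, the element bound by SRF, were in none of the 6 windows, and were in 7.81% and 1.63% of all windows; this says only that these letters are not between these bases. A match is a description of the sequence and was not set against binding data.

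Values are log2 signals made by the authors with GCRMA, a method that removes background by probe sequence and gives 1 value per probe set. A probe set was tested if it exceeded 4 in at least 3 of the 12 arrays, which kept 11102 probe sets and 6 of the 9 of the family, for 5 of its 7 genes. Fosb passed with exactly 6 arrays over 4, all of them from cocaine-treated animals. It therefore entered the tests only through the arrays in which it was high. Below a value of 4 GCRMA compresses differences, so folds measured from such levels depend on its background correction. Levels are compared between groups for 1 probe set at a time and not between probe sets.

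The 3 highest values of Fos, the subunit that gives the family its name, were those of the cocaine-treated mutants. It read 9.60, 9.68 and 9.25 in mutants after cocaine, against 5.65, 5.18 and 6.78 in mutants after saline. In controls it read 8.06, 8.80 and 8.64 after cocaine, against 5.17, 3.71 and 4.14 after saline. Neither genotype's treatment groups overlapped, and the saline arrays spread far more widely than the cocaine arrays. Cocaine raised Fos by 3.64 on the log2 scale in mutants (SE 0.394, 12.5-fold, limma adjusted p = 0.000191) and by 4.16 in controls (SE 0.394, 17.9-fold, limma adjusted p = 1e-04). Among the 11102 probe sets ordered by this change, Fos stood at position 1 in mutants and at position 2 in controls. The fold in controls starts in part from saline values near the floor of 4, at 3.71 and 4.14.

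Fosb, which encodes FosB and its truncated form, lay under the floor of 4 in every saline array. It read 6.06, 5.51 and 5.55 in mutants after cocaine and 2.42, 2.28 and 3.57 in mutants after saline. Controls read 4.38, 4.36 and 4.45 after cocaine and 2.27, 2.31 and 2.09 after saline. All cocaine arrays lay above all saline arrays, and the 3 cocaine-treated mutants lay above the 3 cocaine-treated controls. The rise was 2.95 in mutants (SE 0.260, 7.72-fold, limma adjusted p = 3.31e-05) and 2.17 in controls (SE 0.260, 4.51-fold, limma adjusted p = 0.000797), folds that start from saline levels under 4.

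Junb encodes a Jun protein that pairs with Fos proteins and can restrain the activity of Jun. It read 8.10, 8.59 and 8.26 in mutants after cocaine, against 5.19, 5.02 and 5.91 after saline. In controls the values were 7.29, 7.57 and 7.45 after cocaine, against 5.02, 4.36 and 4.57 after saline. The 2 treatments were separated in each genotype, and the 3 cocaine-treated mutants again lay above the 3 cocaine-treated controls. The rise was 2.94 in mutants (SE 0.218, 7.68-fold, limma adjusted p = 6.39e-06) and 2.79 in controls (SE 0.218, 6.92-fold, limma adjusted p = 1.54e-05).

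**Figure D1:**
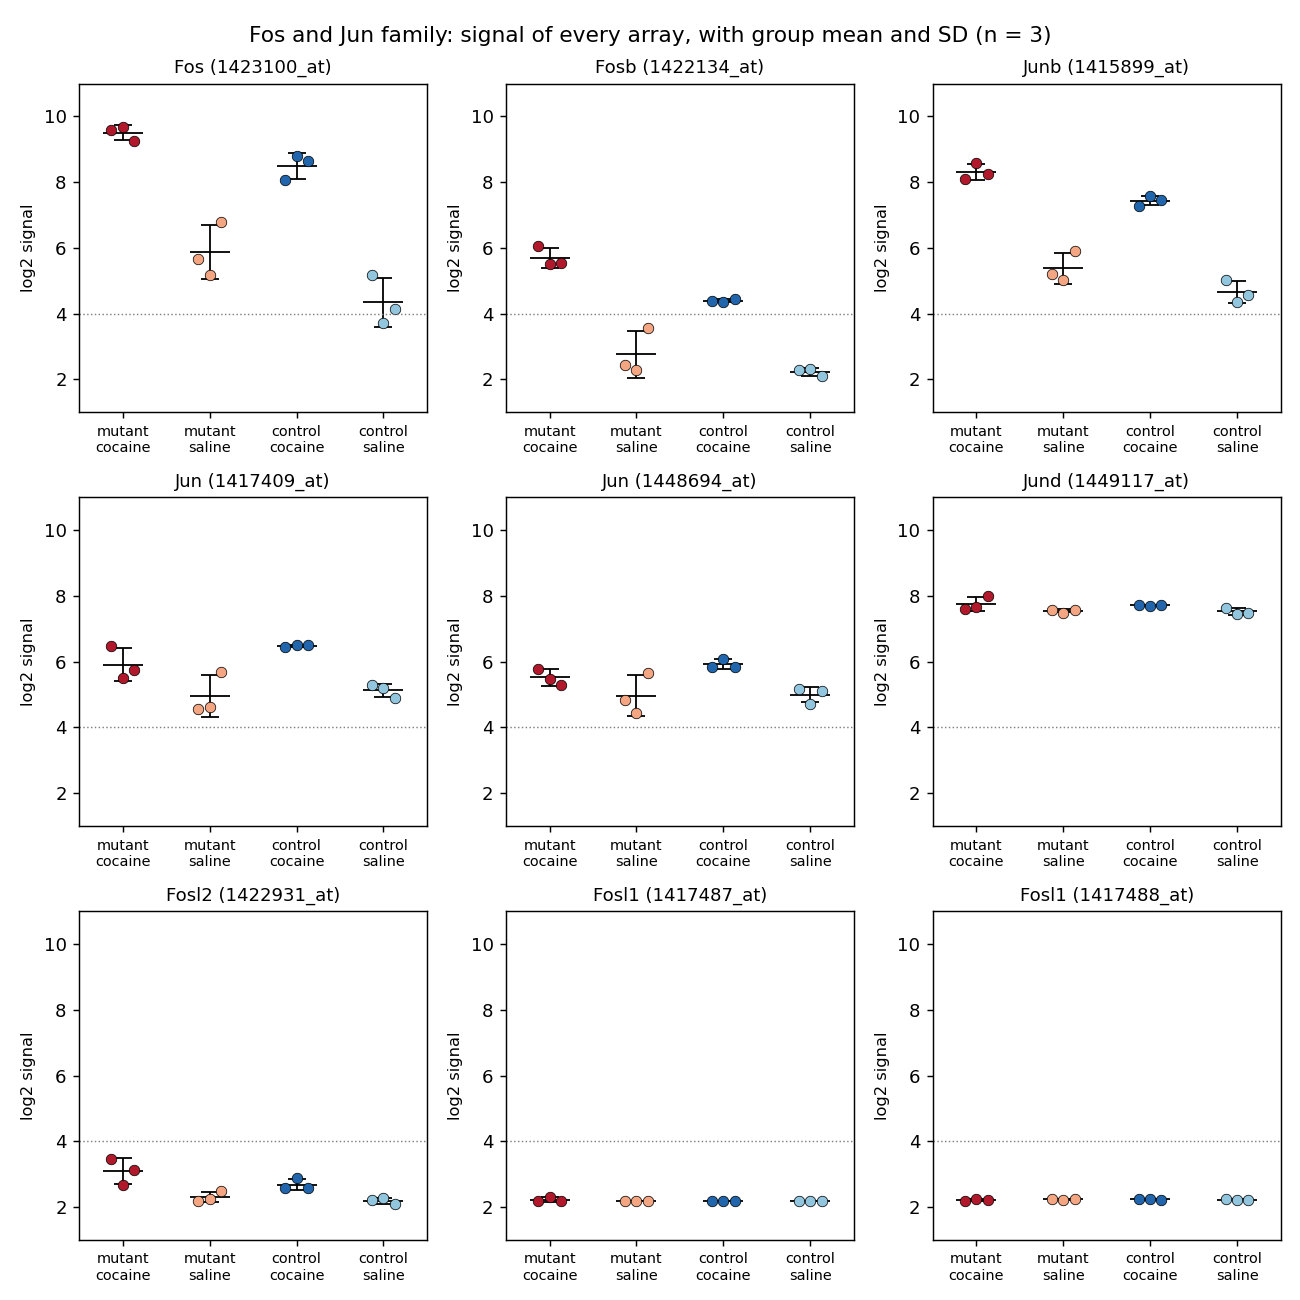
Each panel shows 1 probe set of the family, with the log2 signal on the vertical axis from 1 to 11 and 1 point per array in mutants after cocaine, mutants after saline, controls after cocaine and controls after saline; black marks give the mean and the SD (n = 3) and the dotted line the filter floor of 4. Fos, Fosb and Junb are higher after cocaine in both genotypes and highest in cocaine-treated mutants, Jun is highest in cocaine-treated controls on average, Jund is nearly level, and Fosl1 and Fosl2 stay under 4 in every array.

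Jun, which encodes a strong transcriptional activator, had smaller changes. Its first probe set, on the left among the Jun panels of the plot of all values, read 6.49, 5.50 and 5.76 in mutants after cocaine and 4.57, 4.62 and 5.69 in mutants after saline. In controls it read 6.46, 6.50 and 6.52 after cocaine and 5.29, 5.20 and 4.91 after saline. The control groups were separated by more than their spread, whereas 1 saline-treated mutant, replicate 3, lay among the cocaine-treated mutants. The change was 0.95 in mutants (SE 0.279, limma adjusted p = 0.142) and 1.36 in controls (SE 0.279, limma adjusted p = 0.0611), and neither passed the threshold of 0.05.

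The second Jun probe set showed the same order. It read 5.78, 5.49 and 5.29 in mutants after cocaine and 4.82, 4.43 and 5.64 after saline, and in controls 5.83, 6.10 and 5.83 after cocaine and 5.16, 4.72 and 5.11 after saline. Again the controls were separated and the mutants overlapped through saline replicate 3. Averaged over both genotypes Jun rose, by 1.16 with the first probe set (SE 0.197, 2.23-fold, limma adjusted p = 0.00547) and by 0.74 with the second (SE 0.172, 1.67-fold, limma adjusted p = 0.0427). When each array was left out in turn, the first probe set was called in 12 of 12 fits. The second was called in 1 of 12, the fit without saline-treated mutant replicate 3, and its adjusted p reached 0.124. Without the filter on dim probe sets neither was called (limma adjusted p = 0.0616 and 0.194).

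Jund encodes the Jun protein that is present constitutively in many tissues. It read 7.62, 7.65 and 7.99 in mutants after cocaine, against 7.57, 7.49 and 7.58 after saline, and 7.73, 7.70 and 7.73 in controls after cocaine, against 7.64, 7.46 and 7.49 after saline. The arrays of the 2 treatments did not overlap in either genotype, but the shifts were small. They were 0.21 in mutants (95% confidence interval -0.01 to 0.42, limma adjusted p = 0.483) and 0.19 in controls (-0.03 to 0.40, limma adjusted p = 0.856), and averaged over both 0.20 (SE 0.0691, limma adjusted p = 0.240). Without cocaine-treated mutant replicate 3, the highest Jund value, the change in mutants was 0.09.

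Fosl2 and Fosl1 encode Fra-2 and Fra-1, Fos-related proteins without the strong activation domain of Fos. Fosl2 read 3.46, 2.68 and 3.12 in mutants after cocaine, against 2.17, 2.25 and 2.49 after saline, and 2.59, 2.88 and 2.57 in controls after cocaine, against 2.20, 2.26 and 2.08 after saline. Its cocaine arrays lay above its saline arrays in both genotypes, all under the floor of 4. In a fit over all probe sets without the filter, its change averaged over genotypes was 0.64 (SE 0.127, limma adjusted p = 0.0654). The 2 probe sets of Fosl1 stayed between 2.17 and 2.30 in all 12 arrays, the level of probe sets without signal, so a Fosl1 response was not measurable here.

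In numbers, 3 of the 6 tested family probe sets were called as higher with cocaine in mutants, where 1.76% of all tested probe sets were, and the same number in controls, where 0.450% were. These were Fos, Fosb and Junb in each genotype. Averaged over the genotypes 5 of 6 were called as higher, against 2.11% of all tested probe sets, the exception being Jund. The median change of the 6 was 1.95 in mutants and 1.77 in controls, beside medians of -0.01 and 0.00 over all tested probe sets; Fosb entered these numbers through its cocaine arrays. The treatment groups did not overlap for 4 of the 6 in mutants, where 8.40% of all tested probe sets were separated upwards, and for 6 of 6 in controls, where 6.72% were.

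**Figure D2:**
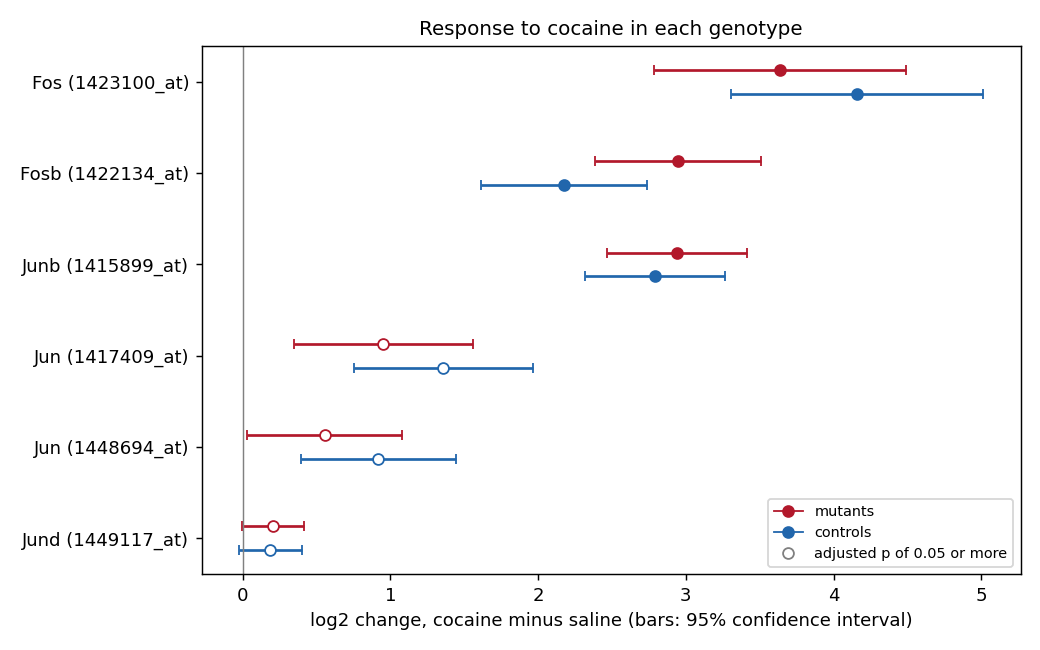
The horizontal axis gives the log2 change, cocaine minus saline, of the 6 tested probe sets in mutants (red, upper of each pair) and controls (blue, lower); bars are 95% confidence intervals from limma and open points have an adjusted p of 0.05 or more. Fos, Fosb and Junb are filled in both genotypes, and the intervals of the genotypes overlap for every probe set.

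The difference between the genotypes' responses was tested directly and was called for 0 of the 6 probe sets by limma, where 0.0721% of all tested probe sets were called; 0 of the 6 had an unadjusted p under 0.05, where 4.98% of all tested did. The response of Fos in mutants minus that in controls was -0.52 (95% confidence interval -1.73 to 0.69), that of Junb 0.15 (-0.52 to 0.82) and that of Fosb 0.77 (-0.02 to 1.57). For Jun it was -0.41 (-1.26 to 0.45) with the first probe set and -0.36 (-1.11 to 0.38) with the second, and for Jund 0.02 (-0.28 to 0.32). The adjusted p was 1.0 for each after rounding. The intervals include responses of Fos and Fosb that differ between the genotypes, so these arrays do not show that the responses were alike. Fosb had the smallest unadjusted p of the family, 0.0555.

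The differences in response also depended on single saline arrays. Without saline-treated mutant replicate 3 that of Fosb was 1.18 (limma adjusted p = 0.0793) and that of Junb 0.42, while that of Fos was -0.07 and those of Jun -0.04 and -0.03. Without saline-treated control replicate 1 that of Fos was -0.94 (limma adjusted p = 0.829), and without saline-treated mutant replicate 2 that of Fosb was 0.54. In the 12 fits that left out 1 array, 0 differences in response of the family were called by limma.

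Fos, Fosb and Junb were higher in mutants than in controls when both treatments were averaged. The averaged difference was 1.27 for Fos (SE 0.279, 2.41-fold, limma adjusted p = 0.0121), 0.92 for Fosb (SE 0.184, 1.90-fold, limma adjusted p = 0.00667) and 0.80 for Junb (SE 0.154, 1.74-fold, limma adjusted p = 0.00563). Each of the 3 was called in 12 of 12 fits that left out 1 array. They were 3 of 6 family probe sets, where 4.41% of all tested probe sets were called as higher in mutants. Fosb entered this count only through its cocaine arrays. Its saline arrays all lay under the floor of 4, so its averaged difference rests in part on such levels. It was 0.54 after saline and 1.31 after cocaine. Without the filter on dim probe sets the Fos difference had an adjusted p of 0.0728.

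Some markers of the striatal projection neurons also differed between the genotypes over both treatments. Of the 8 tested, Tac1 (0.35, limma adjusted p = 0.00102) and Penk (0.19, limma adjusted p = 0.0431) were called higher in mutants, where 4.41% of all tested probe sets were. Both are neuropeptide precursor genes. Rgs9 (-0.33, limma adjusted p = 0.0342), which encodes a regulator of G protein signalling, was called lower, where 5.05% of all tested probe sets were. Rgs9 as the only lower call among the 8 is near that share. The sum of the log2 signals of the 8 ran from 79.1 to 79.9 in mutants after cocaine and 79.1 to 80.4 in mutants after saline, against 78.9 to 79.4 in controls after cocaine and 77.7 to 79.8 in controls after saline. Their part in the family's differences was not tested.

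After saline alone, the basal state of these animals, 0 of 6 family probe sets were called by limma between mutants and controls, where 2.98% of all tested probe sets were; 2 of the 6, Fos and Junb, had an unadjusted p under 0.05, where 15.6% of all tested did. The same 2 had groups that did not overlap, where 9.18% of all tested were separated upwards. The mean of Fos was 5.87 ± 0.819 in saline-treated mutants and 4.34 ± 0.751 in saline-treated controls (SD, n = 3 each), a difference of 1.53 (SE 0.394, 2.89-fold, limma adjusted p = 0.0588). The groups met almost exactly, at a lowest mutant value of 5.18 and a highest control value of 5.17. Junb averaged 5.37 ± 0.468 in mutants and 4.65 ± 0.340 in controls (SD, n = 3 each), a difference of 0.73 (SE 0.218, limma adjusted p = 0.111), with the lowest mutant equal to the highest control at 5.02 after rounding. Fosb differed by 0.54 (SE 0.260, limma adjusted p = 0.349), with overlapping groups.

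These basal values depended on which arrays were used. In saline-treated mutant replicate 3, Fos stood 0.91 above its group mean, Fosb 0.81, the 2 Jun probe sets 0.73 and 0.68 and Junb 0.53, while Jund stood 0.03 above it. Without that array the basal difference was 1.08 for Fos (adjusted p = 0.178), 0.13 for Fosb and 0.46 for Junb (limma). In saline-treated control replicate 1, which had the lowest mean correlation with its own group (0.987), Fos stood 0.83 above its group mean and Junb 0.37. Without this control array the basal difference was 1.94 for Fos (adjusted p = 0.0168) and 0.91 for Junb (adjusted p = 0.0491), both called by limma. Without saline-treated mutant replicate 2 that of Fos was 1.87 (limma adjusted p = 0.0321).

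The same saline-treated mutant, replicate 3, was the highest of its group for all genes with profiles nearest to the family but Nr4a1. These genes are given further on. They were chosen by likeness to the family over all 12 arrays, this one included, so the choice favours genes that are high in it. Arc, which encodes a synaptic protein induced by activity, read 6.40 in it and 5.66 and 5.08 in the other saline-treated mutants, and the phosphatase gene Dusp1 read 8.41, against 7.53 and 6.97. Nr4a1, an orphan nuclear receptor gene, did not follow, with 7.61 in it and 7.66 and 7.23 in the others. The astrocyte filament gene Gfap read 5.58, against 4.87 and 4.71, and its mean was 4.03 in cocaine-treated mutants and 5.05 in saline-treated mutants. Of the 7 astrocyte markers only Gfap was highest of its group in replicate 3. Aldh1l1 read 5.74 in it, against 6.40 and 6.39 in the other saline-treated mutants, and Gja1 8.97, against 9.31 and 9.31. The sum of the log2 signals of all 7 astrocyte markers ran from 45.3 to 46.1 in mutants after cocaine, 45.7 to 46.6 in mutants after saline, 45.7 to 45.9 in controls after cocaine and 44.3 to 46.4 in controls after saline. Its correlation with its own group (0.991) and its 3' minus 5' difference for Gapdh (-0.101, a sign of RNA integrity that ran from -0.172 to -0.0558 over all arrays) were within the range of the other arrays. The part of astrocyte content in the family's values was not tested.

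After cocaine, the final level, Fosb and Junb were called as higher in mutants, 2 of 6 family probe sets where 2.27% of all tested were. Fosb averaged 5.71 ± 0.305 in mutants and 4.40 ± 0.0502 in controls (SD, n = 3 each), a difference of 1.31 (SE 0.260, 2.48-fold, limma adjusted p = 0.0118). It had passed the filter only through its cocaine arrays, the ones compared here. Its control values of 4.36 to 4.45 lay near the floor of 4, so this fold depends in part on the background correction. Junb averaged 8.31 ± 0.248 in mutants and 7.44 ± 0.142 in controls (SD, n = 3 each), a difference of 0.88 (SE 0.218, 1.84-fold, limma adjusted p = 0.0418). Fos averaged 9.51 ± 0.232 in mutants and 8.50 ± 0.393 in controls (SD, n = 3 each), a difference of 1.01 (SE 0.394, 2.01-fold, limma adjusted p = 0.198). All 3 cocaine-treated mutants lay above all 3 cocaine-treated controls for each of these 3 genes, as for 10.7% of all tested probe sets. The Junb call was kept in 4 of 12 fits without 1 array (adjusted p up to 0.138) and the Fosb call in 11 of 12, being lost without cocaine-treated mutant replicate 1 (adjusted p = 0.0635). Without the filter neither was called (adjusted p = 0.0730 for Fosb and 0.153 for Junb).

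Jun did not share this order. After cocaine its probe sets differed by -0.58 (95% confidence interval -1.18 to 0.03) and -0.40 (-0.92 to 0.13) between mutants and controls. The second had all mutants below all controls after cocaine, as for 13.8% of all tested probe sets. After saline the differences were -0.17 and -0.03. Averaged over both treatments the differences were -0.37 (limma adjusted p = 0.281) and -0.22 (limma adjusted p = 0.493). Without saline-treated mutant replicate 3 the averaged difference of the first probe set was -0.56 (limma adjusted p = 0.0401), and that of the second -0.39 (limma adjusted p = 0.0701). The difference nearest to 0 was -0.27 for the first probe set (limma adjusted p = 0.467), without cocaine-treated mutant replicate 2, and -0.083 for the second (limma adjusted p = 0.798), without saline-treated mutant replicate 2. In the fit without saline-treated mutant replicate 3, Jun was called for cocaine in mutants with both probe sets, at 1.32 (limma adjusted p = 0.00967) and 0.89 (limma adjusted p = 0.0245). Jund differed by 0.03 after cocaine and by 0.02 after saline.

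**Figure D3:**
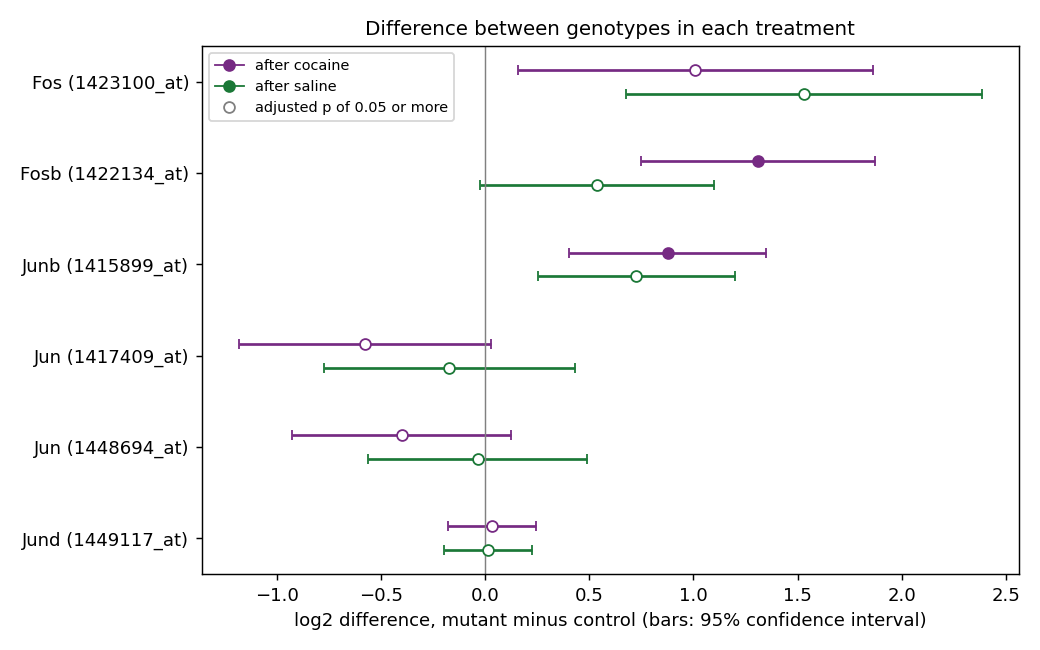
The horizontal axis gives the log2 difference, mutant minus control, of the 6 tested probe sets after cocaine (purple, upper of each pair) and after saline (green, lower); bars are 95% confidence intervals from limma and open points have an adjusted p of 0.05 or more. Fos, Fosb and Junb lie to the right of 0 in both treatments, with Fosb and Junb called after cocaine, and both Jun probe sets lie to its left.

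Over the 12 arrays the profiles of the family lay at differing distances from each other. Distance was the root mean square difference of log2 signals, each centred on its own mean but not scaled. Fosb and Junb were 0.36 apart, Fos and Junb 0.65, and Fos and Fosb 0.85. The 2 Jun probe sets were 0.32 apart, against 1.01 to 1.77 between either of them and Fos, Fosb or Junb. This distance reflects the size of the cocaine response as well as its shape.

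By the same distance, the genes nearest to Fos among those outside the family were Arc (0.493), the orphan nuclear receptor gene Nr4a1 (0.774) and Tiparp (0.849). Tiparp encodes a member of the poly(ADP-ribose) polymerase family. Nearest to Junb were Dusp1 (0.294), Tiparp (0.294) and Nr4a1 (0.318). Nearest to Fosb were Dusp1 (0.291), Tiparp (0.331) and the stress-inducible gene Gadd45b (0.439). Jun had other neighbours: Egr1, which encodes a zinc finger factor, Rnd3, which encodes a small GTPase, and the chaperone gene Hspa8 for the first probe set (0.311, 0.311 and 0.338), and Gadd45g, the growth factor gene Hbegf and Rnd3 for the second (0.187, 0.244 and 0.272). Egr1 averaged 9.90 in mutants after cocaine and 9.26 after saline. In controls it averaged 10.7 after cocaine and 9.37 after saline. As for Jun, its mean was highest in cocaine-treated controls. Egr1 was picked for its likeness to Jun over these same arrays, so a shared order is favoured by that choice.

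**Figure D4:**
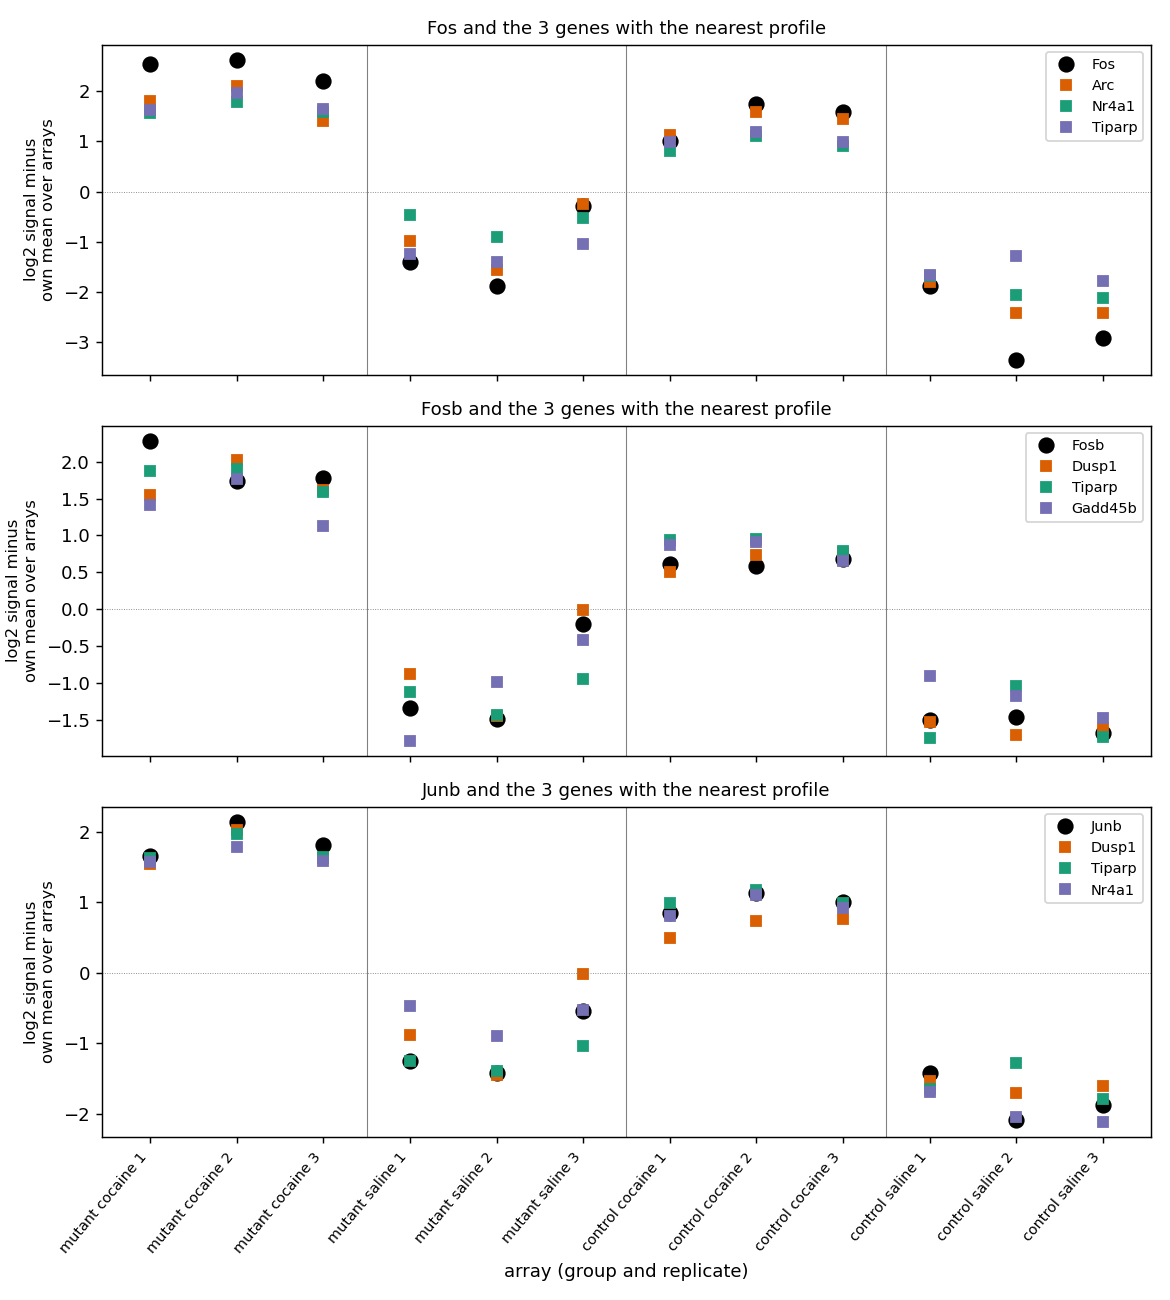
Each panel shows 1 member (black circles) and the 3 genes outside the family with the nearest profile (coloured squares), as log2 signal minus the probe set's own mean over the 12 arrays, with the arrays on the horizontal axis grouped as mutants after cocaine, mutants after saline, controls after cocaine and controls after saline. Saline-treated mutant 3 is the highest of its group for Fos, Fosb and Junb, and for each of their neighbours but Nr4a1. The neighbours were chosen over these 12 arrays, this one included.

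Of 15 listed bZIP factors that pair with Fos or Jun proteins, 6 were tested and 1 was called higher with cocaine over both genotypes, where 2.11% of all tested probe sets were. Atf4, a stress-induced factor, rose by 0.47 (SE 0.0843, limma adjusted p = 0.00822), and its second tested probe set read 0.28 (limma adjusted p = 0.234). The change of Atf4 was 0.64 in mutants (limma adjusted p = 0.0125) and 0.29 in controls (limma adjusted p = 0.693), and the difference between these was not called (limma adjusted p = 1.0). The median change of the 6 was 0.01. Between genotypes 0 of 6 were called by limma in either treatment or averaged. Of all tested probe sets 2.98% were called after saline and 2.27% as higher after cocaine. Averaged, 4.41% were called higher and 5.05% lower, so 0 of 6 is near these shares. Atf2, the brightest member not called, read 0.01 for cocaine and -0.02 between mutants and controls.

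Of 20 listed kinases and coactivators of AP-1, 12 were tested and 0 were called for cocaine by limma in either genotype or averaged, with averaged changes of -0.13 to 0.05. As 1.76% of all tested probe sets were called higher with cocaine in mutants, 0.450% in controls and 2.11% averaged, 0 of 12 is near these shares. Between genotypes Map2k1, the kinase that activates ERK, was the 1 of the 12 called, lower in mutants over both treatments (-0.28, SE 0.0783, limma adjusted p = 0.0405). As 5.05% of all tested probe sets were called lower, 1 of 12 is near that share. Mapk10, a JNK kinase of neurons and the brightest member not called, read 0.05 for cocaine and 0.08 between genotypes.

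Of 15 listed factors known to act on Fos and Jun promoters, 9 were tested. Averaged over both genotypes, their median change with cocaine was 0.09. In that average 2 were called higher with cocaine, where 2.11% of all tested probe sets were. These were Crem (0.81, SE 0.143, limma adjusted p = 0.00736), a CREB relative that includes inducible repressor forms, and the ternary complex factor gene Elk4 (0.34, SE 0.0742, limma adjusted p = 0.0305). Taken by genotype, 2 of the 9 were called higher in mutants and 0 in controls, where 1.76% and 0.450% of all tested probe sets were. For the controls 0 of 9 is near that share. Crem averaged 5.75 in mutants after cocaine and 4.62 after saline, against 4.85 in controls after cocaine and 4.36 after saline. Its changes of 1.13 in mutants (limma adjusted p = 0.00924) and 0.48 in controls (limma adjusted p = 0.706) were not called as different from each other (limma adjusted p = 0.980). Between genotypes 2 were lower and 1 higher in mutants, where 5.05% and 4.41% of all tested probe sets were. Srf, 1 of the lower ones, is the gene the study asks about, so its call says nothing beside that share. The lower ones were Srf (-1.83, SE 0.0662, limma adjusted p = 5.7e-09) and Mef2c (-0.69, SE 0.0910, limma adjusted p = 0.000376), a factor that binds MEF2 boxes. All 5 tested Mef2c probe sets were called lower. Crem was higher in mutants (0.58, SE 0.143, limma adjusted p = 0.0231). Mef2a, the brightest member called in neither comparison, read -0.05 for cocaine and 0.21 between genotypes.

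Of 25 listed genes described elsewhere as AP-1 targets, 11 were tested and 0 were called for cocaine by limma in either genotype or averaged, at the 1 hour studied. Of all tested probe sets 1.76% were called higher with cocaine in mutants, 0.450% in controls and 2.11% averaged, so 0 of 11 is near these shares. Between genotypes 3 were higher and 3 lower in mutants over both treatments, where 4.41% and 5.05% of all tested probe sets were, with a median difference of -0.05. The opioid precursor gene Pdyn differed by 2.20 (limma adjusted p = 8.74e-09) and the secretogranin gene Scg2 by 0.36 (limma adjusted p = 0.0200). Inhba, an activin subunit gene, differed by -1.18 (limma adjusted p = 0.000181) and the glutamate receptor gene Gria2 by -0.45 (limma adjusted p = 0.00396; its second probe set -0.40, limma adjusted p = 0.0511). The others, named after their values were seen, were the enkephalin precursor gene Penk (0.19, limma adjusted p = 0.0431) and the histone methyltransferase gene Ehmt2 (-0.21, limma adjusted p = 0.0340). Npy, the brightest member called in neither comparison, read 0.00 for cocaine and -0.02 between genotypes.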

How the data were processed

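Each probe set has 1 deposited log2 signal for each array. The submitters' processing notes name GCRMA and R 2.4.1 as the authors' tools; the sources used here state neither GCRMA options nor the log base, which was taken from the range of values. Groups came from the sample titles. The 64 control probe sets were left out. Tests used limma 3.58.1 in R 4.3.3 with 1 mean per group over all 12 arrays (8 residual and 4.71 prior degrees of freedom), two-sided, with p-values adjusted by Benjamini and Hochberg's method over all 11102 tested probe sets and a threshold of 0.05; every adjusted p is limma's and SE is limma's standard error. The procedure was tested on simulated data. List counts use the brightest probe set of each gene. The members, lists, marker genes and the rule for named genes (all members, the 3 nearest profiles of each called member, and each list's called members with the largest changes, up to 4 per comparison, with its brightest uncalled one) were chosen with earlier results of these data known. Symbols are those of the platform annotation, which gave 1 symbol for 20393 probe sets. Comparisons that share a group of arrays are not independent. The number of arrays limits the precision; p-values measure the spread between samples that the titles call biological replicates. Alternatives varied the filter, scaling, normalization, array weights, variance moderation, arrays fitted, a replicate block and the arrays left out.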

Additional observations from a re-analysis of the deposited data

How the results depend on the processing

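Centring arrays on their median, a second quantile normalization and a moderated variance with trend left the number of family probe sets called as reported in all 7 contrasts. Without the filter, 3 in place of 5 were called for cocaine over both genotypes and 0 in place of 2 between genotypes after cocaine, with more probe sets tested. After saline, 1 was called between genotypes with the floor at 5 and 2 with array weights, in place of 0. With only the arrays of the groups compared, 5 in place of 3 were called for cocaine in controls and 3 in place of 2 between genotypes after cocaine, Fos being the added one (adjusted p = 0.0235). With the floor at 5 and with array weights, 4 were called for cocaine in controls. Same-numbered arrays of different groups had correlations of deviations of -0.145 to 0.116, and differently numbered ones of -0.101 to 0.160. Over all tested probe sets the same-numbered arrays were thus no more alike, which cannot exclude a pairing that affects few probe sets. With a replicate block 1 in place of 2 was called between genotypes after cocaine, Junb being lost (limma adjusted p = 0.0693). Over the 12 fits that left out 1 array, the number called ran from 3 to 5 for cocaine in mutants and in controls, 5 being reached without saline-treated mutant replicate 3. Between genotypes it ran from 0 to 2 after saline and from 0 to 2 after cocaine, 0 after cocaine being the fit without cocaine-treated mutant replicate 1. An array left out leaves its group with 2, whose spread is then estimated with that of the other groups. Uncalled differences near 0 changed sign in 15 values of these fits. Between genotypes after saline, Jun ran from -0.54 to 0.024 with the first probe set and from -0.37 to 0.23 with the second, and Jund from -0.019 to 0.071. Jund ran from -0.083 to 0.102 after cocaine and from -0.034 to 0.059 averaged over treatments. The difference in response ran from -0.035 to 0.417 for Junb and from -0.099 to 0.086 for Jund. It kept its sign for Fos (-0.94 to -0.07), Fosb (0.54 to 1.18) and Jun (-0.69 to -0.04 and -0.63 to -0.03). The cause of these changes was not tested. Levels under 4 limit what can be said of Fosb after saline, Fosl1 and Fosl2. Fos read 3.71 in saline-treated control replicate 2 and 4.14 in replicate 3. Its response in controls, basal difference and difference in response therefore rest in part on levels near the floor.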
